A study of Mus musculus with 3 samples.

Results

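Reelin and its receptor pathway were followed through 4 genes in single cells sorted from the developing mouse neocortex (NCx): Reln, which encodes the secreted ligand, Lrp8 and Vldlr, which encode its receptors, and Dab1, which encodes the adaptor that the receptors engage inside the cell. The genes were chosen by name as the core of the pathway, with earlier results of these data known but not through a threshold on measured values. They are 4 of the 31053 genes in the count matrices. All cells came from SstCre/+;RCEfl/+ mice (strain Sst-Cre; RCEloxP), in which Cre under the control of Sst switches on GFP, so that a cell that once expressed Sst may carry GFP with little Sst mRNA left. The NCx of 6 animals was pooled at E16.5, and that of 3 animals each at P1 and at P5. GFP+ cells that did not take up DAPI were collected by FACS, and each pool gave a single 10x Genomics library. The labels name no treatment, so the 3 libraries differ in stage, and stage cannot be told apart from library, Cell Ranger run or dissociation. With 1 library per stage there was no replicate check of any difference and no test. The 95% intervals given in parentheses are exact Poisson intervals for CPM (UMIs of a gene over all UMIs of a group of cells, times 1000000), exact binomial (Clopper-Pearson) limits for the percentage of cells with a UMI and conditional binomial intervals for ratios, and they cover counting error only.

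In the order E16.5, P1, and P5, which holds for all series of 3 values unless stages are named, the matrices contained 4478, 4440, and 3406 cells with totals of 25638779, 15654107, and 13429055 UMIs. Cells with more than 700 genes and under 10% of UMIs from mitochondrial genes were kept, which left 3952, 2501, and 2980 cells with a median of 5577, 3293, and 3935.5 UMIs, respectively. The P1 library was thus the shallowest and lost the most cells. There were 10 cell barcodes that occurred in 2 libraries. Doublets were not removed.

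Reelin is a large glycoprotein of the extracellular matrix that binds the lipoprotein receptors encoded by Lrp8 and Vldlr. Dab1 binds these receptors inside the cell. When reelin binds, Dab1 is phosphorylated by Src family kinases and passes the signal to the cytoskeleton and to adhesion molecules. In the embryonic cortex, Cajal-Retzius cells of the marginal zone are the best known source of reelin and migrating excitatory neurons are its best known responders, while later in life many cortical interneurons, among them SST+ neurons, make reelin.

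Reln (ENSMUSG00000042453) lies on the reverse strand at chr5:21884454-22344702 and spans 460 kb, in the coordinates of GENCODE M21 on GRCm38. Lrp8 (ENSMUSG00000028613) occupies chr4:107802261-107876840 and Vldlr (ENSMUSG00000024924) chr19:27216484-27254231, both on the forward strand. Dab1 (ENSMUSG00000028519) is the longest of the set, at chr4:103619359-104744844 on the forward strand, or 1125 kb. Gm10475, an antisense gene, shares 246 exon bases with Reln and had 25, 3, and 16 UMIs in the kept cells at E16.5, P1, and P5. The other genes that lie within the members shared no exon bases with them.

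Levels were read in 3 groups of kept cells. Nos1 cells held at least 1 UMI of Nos1, the neuronal nitric oxide synthase gene that marks long-range projecting SST+ neurons, and numbered 67, 434, and 547 at E16.5, P1, and P5. Sst-high cells held at least 5 Sst UMIs and no Nos1 UMI, and numbered 1920, 757, and 896. Sst-silent cells held an Lhx6 UMI and 0 Sst UMIs, and numbered 776, 491, and 559. The groups overlapped only between Nos1 and Sst-silent cells, which shared 2, 26, and 14 cells. Their median depths were 7863, 3704.5, and 3073 UMIs in Nos1 cells, 6457, 4557, and 5542.5 in Sst-high cells, and 4979.5, 3117, and 3316 in Sst-silent cells, so that the depth fell with stage in Nos1 cells.

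The markers fitted an inhibitory sort. At least 2 of 6 genes of medial ganglionic eminence (MGE) interneurons were detected in 97.5%, 93.4%, and 92.9% of kept cells at E16.5, P1, and P5. At least 2 of 6 genes of long-range SST+ neurons were detected in 80.6%, 94.5%, and 96.0% of Nos1 cells, against 11.9%, 24.7%, and 7.59% of Sst-high cells, although Nos1 itself is on that list. Cells with at least 2 excitatory markers and no Lhx6, Gad1 or Gad2 UMI reached 45.7%, 46.7%, and 14.3%. The list alone thus does not identify long-range neurons. Of the Nos1 cells, 41 of 67, 369 of 434, and 415 of 547 held at least 5 Sst UMIs, and 18, 74, and 155 held no Lhx6 UMI. At least 2 of 6 excitatory genes were found in 1.16%, 1.88%, and 0.839% of kept cells, at least 2 of 4 genes of the Meis2 list in 2.43%, 1.28%, and 0.0671%, and at least 2 of 5 genes of the caudal ganglionic eminence (CGE) list in 0.531%, 0.680%, and 0.0336%. The lists for radial glia and astrocytes, the oligodendrocyte lineage, microglia and endothelium reached at most 0.329% of kept cells in any library. Of the Cajal-Retzius list, Trp73 and Lhx1 were at 0 in kept cells at E16.5 and P1, and Cacna2d2 made up 117 of 118, 194.5 of 195, and 409 of 411 CPM, so that nearly all of the sum came from a gene detected throughout the sorted cells. At P5 all 6 genes of the list were detected and 0.436% of kept cells held at least 2. Only 3 cells, all at P5, held at least 3, and these had 0 Reln UMIs and 9 Dab1 UMIs.

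Groups were compared within each library by the log2 ratio of CPM + 1, and a ratio of at least 2-fold either way was counted, among genes with at least 10 UMIs over both groups. In Nos1 against Sst-high cells, 2 of 4 members were that far apart at E16.5 (Reln and Dab1), where 14.6% of 13109 genes were, 1 of 4 at P1 (Reln), where 7.46% of 12477 genes were, and 2 of 4 at P5 (Reln and Dab1), where 11.1% of 12668 genes were. With only 4 members to count, 2 of 4 lay above the background of all genes, while 1 of 4 is the smallest count above 0 and is not read as a result about the set. Without cells with 2 or more excitatory markers the count at E16.5 fell to 1, since the Dab1 ratio went from 3.38 to -0.48. In Sst-silent against Sst-high cells, 0 of 4 members were 2-fold apart at E16.5 (6.07% of all genes), 1 at P1 (10.1%), and 1 at P5 (7.14%), each time Reln, and again the smallest count above 0 where it was 1. The ratio of Reln at E16.5 passed 2-fold with a stricter filter on cells (-1.07) and without the 5% of cells with the most UMIs (-1.03).

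Between stages, from E16.5 to P1, 3 of 4 members were at least 2-fold apart in Nos1 cells, against 22.0% of all genes, 2 of 4 in Sst-high cells, against 16.5%, and 0 of 4 in Sst-silent cells, against 16.2%. From P1 to P5 it was 1 of 4 in each group, Dab1 every time, which is near the background of 20.4% in Nos1 cells, 19.1% in Sst-high cells, and 25.7% in Sst-silent cells and is not a result about the set. From E16.5 to P5 it was 2 of 4 in Nos1 cells (32.9% of all genes), 3 of 4 in Sst-high cells (30.4%), and 2 of 4 in Sst-silent cells (35.1%). The counts of 3 of 4 lay furthest above these shares, and each of the 3 in Nos1 cells from E16.5 to P1 was lost or turned under an alternative: Reln went from 1.70 to -0.22 with at least 3 Nos1 UMIs, Lrp8 from 1.04 to 0.61 with cells thinned to 2000 UMIs, and Dab1 from -2.32 to 0.03 without cells with 2 or more excitatory markers. The median log2 ratio of all genes was itself 0.18, 0.16, and 0.12 from E16.5 to P1 in Nos1, Sst-high, and Sst-silent cells, and -0.16 from P1 to P5 in Nos1 cells, and stage ratios of the members are to be read against these shifts.

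Reln, the ligand gene, stood at 152 CPM (145 to 158) in Sst-high cells at E16.5, 430 CPM (411 to 449) at P1, and 581 CPM (560 to 602) at P5. Sst-silent cells gave 84.5 CPM (75.5 to 94.3), 142 CPM (125 to 161), and 229 CPM (209 to 251), respectively. Nos1 cells gave 37.0 CPM (23.2 to 56.1), 122 CPM (107 to 139), and 72.3 CPM (60.9 to 85.3). Sst-high cells were the highest of the 3 groups in each library and Nos1 cells the lowest, with intervals that overlapped only between Nos1 and Sst-silent cells at P1. Along the stages, the Sst-high and Sst-silent cells were higher in each later library without overlap, whereas Nos1 cells were highest at P1.

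The Reln ratio of Nos1 over Sst-high cells was -2.01 (-2.71 to -1.43) at E16.5, -1.80 (-2.01 to -1.62) at P1, and -2.99 (-3.26 to -2.76) at P5. The Reln ratio of Sst-silent over Sst-high cells was -0.84 (-1.02 to -0.67), -1.59 (-1.80 to -1.41), and -1.34 (-1.49 to -1.20). Summed markers of SST+ interneuron types also differed between Sst-silent and Sst-high cells. The Martinotti list summed to 297, 721, and 1616 CPM in Sst-silent cells and 882, 2094, and 3334 CPM in Sst-high cells. The non-Martinotti list summed to 4082, 7454, and 5006 CPM against 1693, 2734, and 2581 CPM. Mef2c alone gave 1728, 4147, and 3054 CPM of that sum in Sst-silent cells. Among Sst-high cells, Reln was not lower with Mef2c at E16.5 (0.29, 0.099 to 0.49) or P1 (0.05, -0.21 to 0.32). At P5, cells with Mef2c held 536 CPM of Reln, against 581 CPM in all Sst-high cells. The non-Martinotti sum is thus not read as tracking Reln. The part of this mix of types in the Reln ratio was not tested. From E16.5 to P1, Reln differed by 1.497 (1.41 to 1.59) on the log2 scale in Sst-high cells, 0.74 (0.50 to 0.99) in Sst-silent cells, and 1.70 (1.09 to 2.43) in Nos1 cells. The next step, P1 to P5, gave 0.43 (0.35 to 0.52), 0.69 (0.47 to 0.92), and -0.75 (-1.07 to -0.45), so that Nos1 cells alone of the 3 groups had less Reln in the later library. In cells with more than 1000 genes and under 5% mitochondrial UMIs, the Sst-high ratio was 0.71 from E16.5 to P1 and 1.09 from P1 to P5, which moved the 2-fold step from the earlier to the later interval with 184 of 757 Sst-high cells left at P1, and with no filter on cells the ratio from P1 to P5 was -0.18. The stricter filter also took the Nos1 ratio from P1 to P5 to 0.64 and that from E16.5 to P1 to 0.07.

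**Figure D1:**
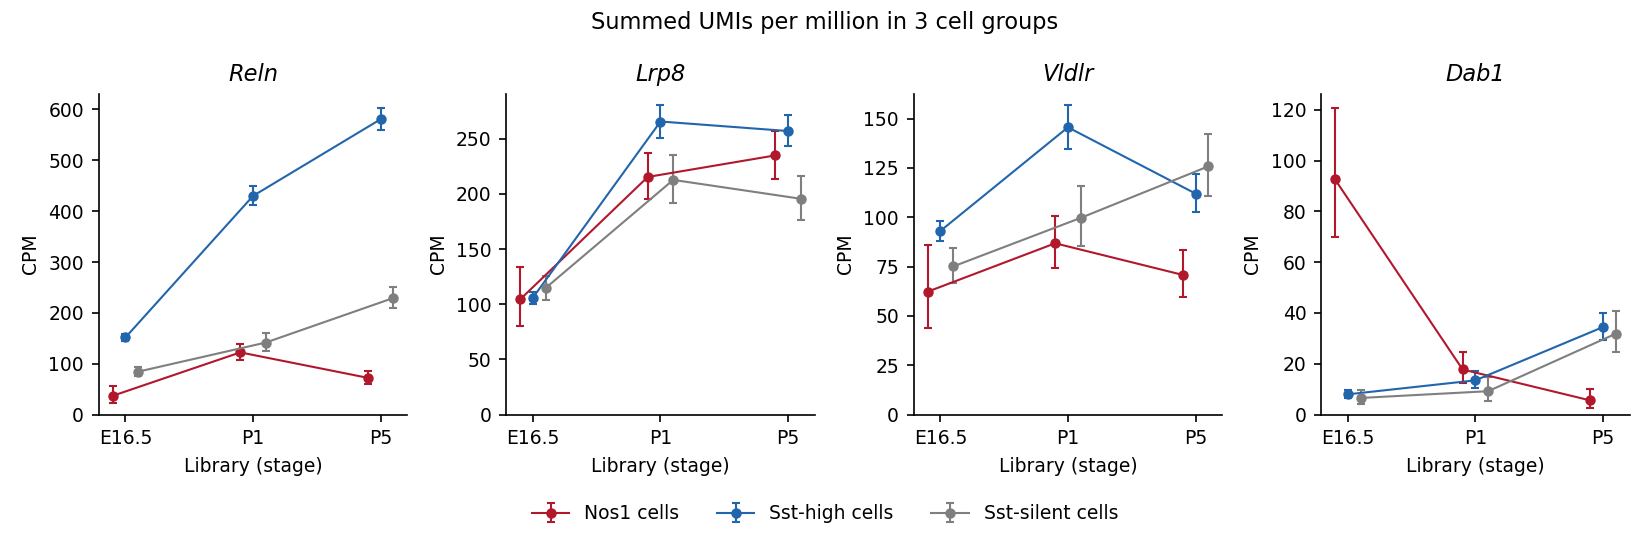
CPM of Reln, Lrp8, Vldlr and Dab1 (1 panel each, vertical axis) in the E16.5, P1, and P5 libraries (horizontal axis) for Nos1, Sst-high, and Sst-silent cells, with exact 95% Poisson intervals as error bars. Reln separates Sst-high cells (152, 430, and 581 CPM) from Nos1 cells (37.0, 122, and 72.3 CPM), while Dab1 in Nos1 cells goes from 92.6 to 5.60 CPM as it goes from 7.99 to 34.4 CPM in Sst-high cells. Of the 67 Nos1 cells at E16.5, 14 with 2 or more excitatory markers hold 53 of 55 Dab1 UMIs, and Nos1 cells with fewer such markers stand at 4.88, 4.997, and 5.63 CPM.

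At least 1 Reln UMI was found in 42.4%, 55.6%, and 70.6% of Sst-high cells at E16.5, P1, and P5. The share was 19.5%, 22.0%, and 28.6% in Sst-silent cells and 13.4% (6.33 to 24.0), 18.0% (14.5 to 21.9), and 9.32% (7.02 to 12.1) in Nos1 cells. As a measure of free RNA, excitatory cells, which are not known as a source of Reln in the NCx, were read in the same way, taken as cells with at least 2 excitatory markers and no Lhx6, Gad1 or Gad2 UMI. They numbered 35, 30, and 21, with a median of 10809, 5012, and 3974 UMIs, and 8.57% (1.80 to 23.1), 13.3% (3.76 to 30.7), and 4.76% (0.12 to 23.8) of them held a Reln UMI. By share, Sst-high cells lay far above this level in each library, Sst-silent cells lay above it at P5, and Nos1 cells could not be told apart from it. By CPM, the excitatory cells stood at 10.5 (2.86 to 26.8), 29.6 (9.62 to 69.2), and 11.4 (0.287 to 63.2). Sst-silent cells were above this without overlap in each library, and Nos1 cells at P1.

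With every cell thinned to 2000 UMIs, a Reln UMI was left in 22.2%, 39.0%, and 53.1% of Sst-high cells, 11.9%, 16.2%, and 25.1% of Sst-silent cells, and 6.15%, 12.6%, and 5.80% of Nos1 cells. The order of the groups at fixed depth was that of the CPM. Thinning left out 58, 154, and 110 Sst-high cells, 73, 109, and 112 Sst-silent cells, and 2, 78, and 133 Nos1 cells as too shallow.

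Reln UMIs were spread unevenly over Sst-high cells. At least 5 Reln UMIs were held by 7.03%, 19.4%, and 28.5% of them at E16.5, P1, and P5, and the highest cell had 14, 36, and 22. The 10% of cells with the most Reln held 51.6%, 51.5%, and 34.4% of all Reln UMIs of the group, a share that also depends on depth and on the number of UMIs per cell, which differ between libraries. Among Nos1 cells, 2.99%, 3.69%, and 1.83% held at least 5 Reln UMIs, and among Sst-silent cells 1.80%, 3.05%, and 5.55%.

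Within Nos1 cells at P1 and P5, Reln was lower with more Nos1 UMIs, in bins that were chosen after the data had been seen. Cells with 1 Nos1 UMI gave 280 CPM (241 to 324) at P1 and 281 CPM (225 to 346) at P5, and cells with 2 to 4 gave 126 CPM (87.8 to 175) and 52.4 CPM (25.1 to 96.3). Cells with 5 or more gave 24.8 CPM (16.2 to 36.3) and 30.2 CPM (21.9 to 40.5). The cells with a single Nos1 UMI, 126 of 434 at P1 and 81 of 547 at P5, held 180 of 241 and 88 of 142 Reln UMIs. Whether that Nos1 UMI came from free RNA was not tested. At E16.5 the values ran the other way, with 12.4 CPM (3.37 to 31.7) in 38 cells with 1 Nos1 UMI and 81.6 CPM (37.3 to 155) in the 8 cells with 5 or more. These rested on 4 Reln UMIs in 1 cell and 9 Reln UMIs in 4 cells, too few cells to read an order.

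The stage pattern of Reln in Nos1 cells therefore rested on that threshold. With at least 3 Nos1 UMIs, the ratio of Nos1 over Sst-high cells was -3.29 at P1 and -4.27 at P5, and the ratio from E16.5 to P1 in Nos1 cells turned from 1.70 to -0.22. With at least 5, a setting chosen after the data had been seen, it was -0.89, -4.06, and -4.22 in the 3 libraries against Sst-high cells, and -1.68 from E16.5 to P1 and 0.27 from P1 to P5 within Nos1 cells. Split by Dach1 and Lypd1, 2 genes that divide long-range neurons, Nos1 cells with Dach1 gave 65.5 CPM (43.5 to 94.6) of Reln at P1, those with Lypd1 37.2 CPM (19.2 to 64.9), and those with neither 167 CPM (145 to 192). At P5 the 221 cells with Lypd1 gave 30.6 CPM (20.0 to 44.9) and the 284 with neither 116 CPM (95.2 to 140), so that the cells without these genes carried most of the Reln in both libraries. How far this split overlaps the split by Nos1 UMIs was not tested, so it is not read as a subtype with Reln.

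**Figure D2:**
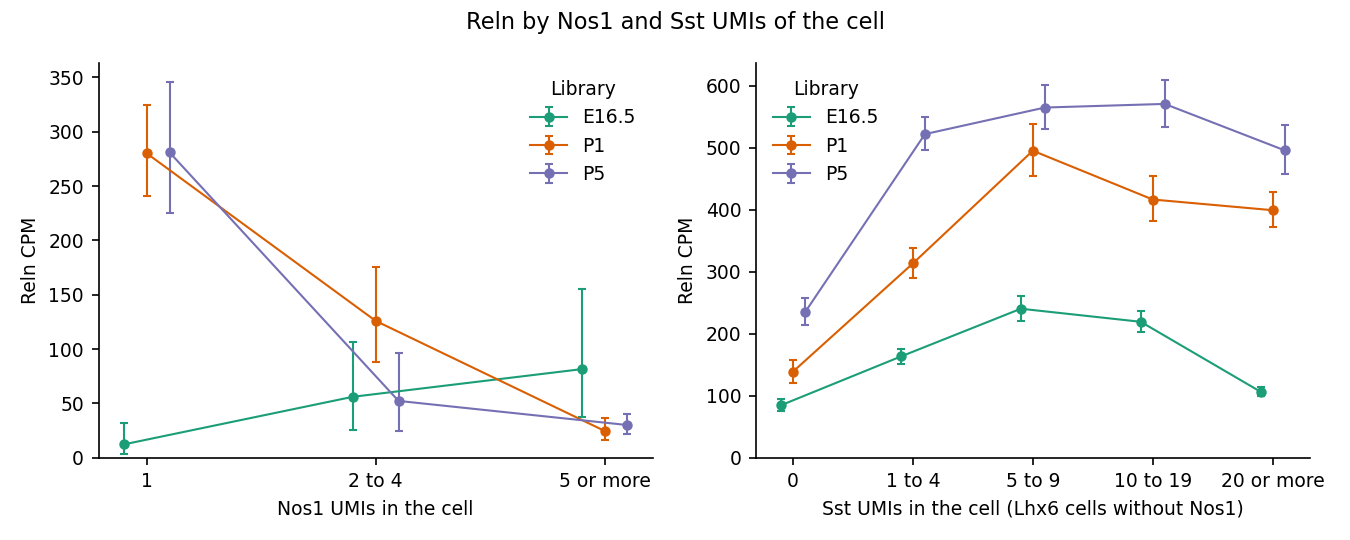
Reln CPM (vertical axis) against the number of Nos1 UMIs in Nos1 cells and against the number of Sst UMIs in Lhx6 cells without Nos1 (horizontal axes), with 1 line per library and exact 95% Poisson intervals. At P5, Reln goes from 281 CPM at 1 Nos1 UMI to 30.2 CPM at 5 or more, and from 235 CPM at 0 Sst UMIs to 571 CPM at 10 to 19.

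Reln was not in proportion to Sst among Lhx6 cells without Nos1. At E16.5 it was 84.8 CPM in cells with 0 Sst UMIs, 163 CPM with 1 to 4, 240.4 CPM (221 to 261) with 5 to 9, 219 CPM (202 to 237) with 10 to 19, and 107 CPM (99.4 to 114) with 20 or more. At P1 the same bins gave 139, 314, 495, 417, and 399 CPM, and at P5 235, 522, 565, 571, and 496 CPM. In all 3 libraries the bins with 0 and with 1 to 4 Sst UMIs were below the bin with 5 to 9, and the bin with 20 or more had a lower value than that with 5 to 9, by the most at E16.5. At P5 the intervals of the 3 bins with 5 or more UMIs overlapped.

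Among Sst-high cells, Reln differed between cells with and without markers of Martinotti and non-Martinotti SST+ interneurons, read for markers with at least 30 cells on either side. The paper that reported these cells already gives Reln as enriched along its Martinotti branch, so the association was known from the same data. At P5 it reached 942 CPM (886 to 1000) in the 181 cells with Pdyn, the prodynorphin gene, 828 CPM (791 to 866) with Unc13c, and 765 CPM (725 to 806) with Nr2f2, a nuclear receptor gene. The low end was 203 CPM (165 to 248) in the 72 cells with Nxph2 and 293 CPM (268 to 319) with Erbb4, the neuregulin receptor gene. The high gates were all from the Martinotti list and the low pair from the non-Martinotti list, but Etv1, a Martinotti marker, stood at 351 CPM (286 to 426) and Sfrp2, of the other list, at 736 CPM (638 to 846).

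Over the 9 Martinotti gates at P5 the log2 ratio of Reln with over without the marker had a median of 0.69, with 6 intervals above 0 and 1 below, and over the 9 non-Martinotti gates a median of -0.44, with 1 above and 6 below. At P1 the medians were 1.12 and -0.12, with 5 intervals above 0 and 0 below over 7 Martinotti gates and 2 above and 4 below over 8 others. At E16.5 they were 0.50 and -0.38, with 4 above and 3 below over 7 Martinotti gates and 2 above and 5 below over 9 others, so that the lists were least separated there. Gates share cells and are not independent. The largest ratio belonged to Grin3a, an NMDA receptor subunit gene, at P5, with 625 CPM in cells with it and 63.6 CPM in the 97 cells without, a ratio of 3.28 (2.73 to 3.93). For Grin3a the ratio was 2.03 (1.70 to 2.40) at P1 and -0.15 (-0.27 to -0.02) at E16.5, so that the link between these genes was seen in the postnatal libraries and not in the embryonic one.

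At E16.5 the leading gates were Unc13c at 211 CPM (178 to 249) and Neto1 at 189.7 CPM (181 to 199), against 75.6 CPM in cells without Neto1. The lowest were Rbp4 at 44.1 CPM (33.4 to 57.1) and Cbln4, a marker of the Martinotti list, at 61.0 CPM (45.1 to 80.7). Cort, a neuropeptide gene of the non-Martinotti list, marked low Reln in each library, with ratios of -1.31, -0.66, and -1.22.

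The markers were also read from the side of Reln, by setting Sst-high cells with at least 5 Reln UMIs (135, 147, and 255 cells) against those with 0 (1105, 336, and 263), a threshold chosen after the data had been seen. These are the same cells and genes as in the gates, so the values are no independent support for that association. The cells with Reln were deeper, with a median of 8391, 10782, and 6797 UMIs against 5916, 3038, and 4404, and the part of depth in the result was not tested. Over the 10 Martinotti markers the median log2 ratio was 0.53, 1.32, and 1.04, with 3, 7, and 5 at least 2-fold higher, where 1.55%, 2.93%, and 4.08% of the 12357, 11210, and 11224 genes with at least 10 UMIs were. Of the 3 at E16.5, Pdyn rested on 4 UMIs, under that minimum. Over the 10 non-Martinotti markers the median was -0.31, -0.69, and -0.81, with 3, 4, and 4 at least 2-fold lower, where 5.52%, 5.36%, and 4.92% of the same genes were. Markers on the other side of 2-fold were found at E16.5 only, Cbln4 of the Martinotti list at -2.08 (-5.69 to -0.72, from 2 UMIs in the Reln-rich cells) and Tac1 of the non-Martinotti list at 1.53 (1.22 to 1.88). For Tac1 this is the opposite of the gate, in which Reln was lower with Tac1 than without it at E16.5 (71.5 against 155 CPM, a ratio of -1.11, -1.60 to -0.67). Nr2f2 gave 0.96, 2.10, and 3.04, and Erbb4 -0.30, -1.98, and -3.05, at E16.5, P1, and P5. Sst itself was lower in the Reln-rich cells, with ratios of -0.76, -1.03, and -0.45.

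**Figure D3:**
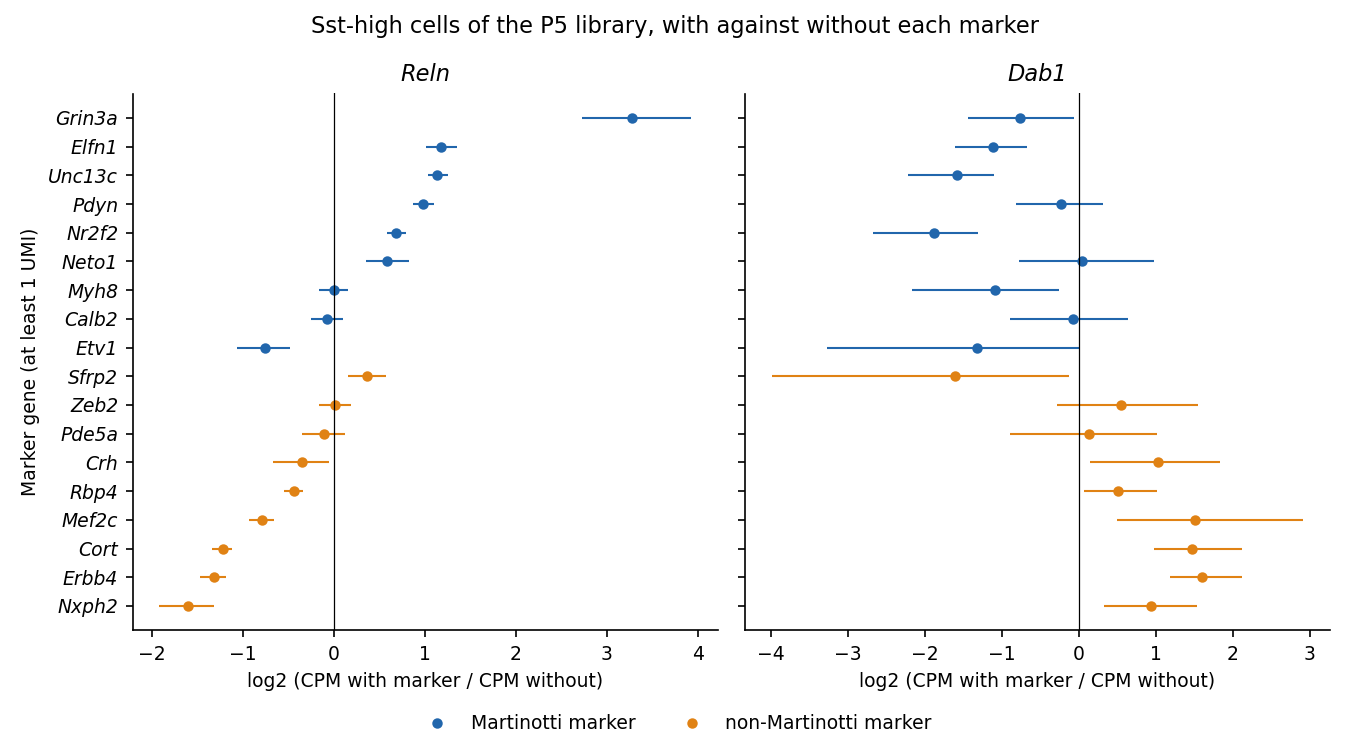
Log2 ratio of CPM + 1 in P5 Sst-high cells with a marker over those without (horizontal axis) for 18 markers (vertical axis), for Reln and Dab1, with Martinotti markers in blue, non-Martinotti markers in orange and 95% counting intervals as bars. Reln is highest for Grin3a (3.28) and lowest for Nxph2 (-1.61), and Dab1 is highest for Erbb4 (1.60) and lowest for Nr2f2 (-1.88).

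Lrp8, which encodes apolipoprotein E receptor 2, stood at 106 CPM (101 to 111) in Sst-high cells at E16.5, 266 CPM (251 to 281) at P1, and 257 CPM (243 to 271) at P5. Sst-silent cells gave 115 CPM (104 to 126), 213 CPM (191 to 235), and 196 CPM (177 to 216), and Nos1 cells 104 CPM (80.0 to 134), 215 CPM (195 to 237), and 235 CPM (214 to 257). The intervals of all 3 groups overlapped at E16.5. At P1 Sst-high cells were above the other groups, which overlapped, and at P5 Sst-high cells were above Sst-silent cells while Nos1 cells overlapped both.

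The Lrp8 ratio of Nos1 over Sst-high cells was -0.02 (-0.41 to 0.35), -0.30 (-0.47 to -0.14), and -0.13 (-0.29 to 0.03), and that of Sst-silent over Sst-high cells 0.11, -0.32, and -0.39, all under 2-fold. From E16.5 to P1, Lrp8 differed by 1.32 (1.22 to 1.44) in Sst-high cells, 0.88 (0.69 to 1.09) in Sst-silent cells, and 1.04 (0.66 to 1.45) in Nos1 cells, a step toward higher levels in all 3 groups. From P1 to P5 the ratios were -0.05, -0.12, and 0.12, with intervals that held 0 in each group. The Nos1 ratio of 1.04 fell under 2-fold with cells thinned to 2000 UMIs (0.61), with at least 3 Nos1 UMIs (0.71) and with the mean of per-cell CPM (0.86).

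Lrp8 UMIs were found in 48.8%, 67.5%, and 68.4% of Sst-high cells, 40.5%, 49.1%, and 43.1% of Sst-silent cells, and 55.2%, 53.9%, and 48.1% of Nos1 cells. Thinned to 2000 UMIs, the shares were 18.5%, 40.3%, and 37.8%, 18.9%, 29.3%, and 32.2%, and 20.0%, 30.6%, and 35.0%, respectively. At fixed depth, each group was thus higher at P1 than at E16.5, which the full-depth share of Nos1 cells did not show. The excitatory cells held Lrp8 at 136, 160.1, and 114 CPM, and no sorted cell type is known to lack Lrp8, Vldlr or Dab1 and to give a background for them.

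Vldlr, which encodes the very low density lipoprotein receptor, stood at 93.1 CPM (88.1 to 98.2) in Sst-high cells at E16.5, 146 CPM (135 to 157) at P1, and 112 CPM (103 to 122) at P5. Sst-silent cells gave 75.1 CPM (66.6 to 84.3), 99.7 CPM (85.4 to 116), and 126 CPM (111 to 142), and Nos1 cells 62.3 CPM (43.8 to 85.8), 86.8 CPM (74.3 to 101), and 70.8 CPM (59.5 to 83.6). Nos1 cells had the lowest value in each library, though their intervals overlapped those of Sst-silent cells at E16.5 and P1. Sst-high cells were the highest at E16.5 and P1, and at P5 they overlapped Sst-silent cells.

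The Vldlr ratio of Nos1 over Sst-high cells was -0.57 (-1.09 to -0.11), -0.74 (-0.997 to -0.501), and -0.65 (-0.94 to -0.39). The Vldlr ratio of Sst-silent over Sst-high cells was -0.31, -0.54, and 0.17 (-0.05 to 0.39). From P1 to P5, Vldlr was lower in Sst-high cells, at -0.38 (-0.54 to -0.21), and higher in Sst-silent cells, at 0.33 (0.05 to 0.62). In cells with more than 1000 genes and under 5% mitochondrial UMIs, Sst-silent cells stood at 118.8 CPM at P1 and 117.5 CPM at P5. The higher level at P5 was thus not kept under that filter. With no filter on cells, they stood at 118.8 and 130.2 CPM. With the reported settings, Vldlr was under 2-fold in all comparisons between groups and between stages, the only member without a 2-fold ratio. The ratio of Nos1 over Sst-high cells passed 2-fold at P1 with at least 3 Nos1 UMIs (-1.07) and with at least 5, chosen after seeing the data (-1.07), and at P5 with cells thinned to 2000 UMIs (-1.08). A Vldlr UMI was found in 42.6%, 48.0%, and 42.5% of Sst-high cells, 28.4%, 29.5%, and 33.8% of Sst-silent cells, and 40.3%, 27.9%, and 19.9% of Nos1 cells, which became 15.5%, 23.9%, and 21.5%, 14.5%, 19.6%, and 22.8%, and 12.3%, 13.2%, and 11.6% at 2000 UMIs.

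The receptors differed less between interneuron markers. Over all gates in Sst-high cells with at least 30 cells, the ratio with over without a marker ran from -0.73 to 0.32 for Lrp8 and from -0.69 to 0.60 for Vldlr, so that no gate reached 2-fold in any library. Within that range, Vldlr at E16.5 was higher with 6 of 7 Martinotti markers and lower with 8 of 9 non-Martinotti markers, with 2 intervals above 0 and 4 below, respectively. At P1 it was higher with 4 of 7, with 1 interval above 0, and lower with 7 of 8, with 3 below. At P5 it was higher with 2 of 9 and lower with 4 of 9, with 2 intervals below 0 and 0 above among the former, and 2 above and 0 below among the latter. A UMI of either receptor gene was present in 30.7%, 55.2%, and 51.9% of Sst-high cells at 2000 UMIs.

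Dab1, the adaptor gene, was sparse in Sst-high and Sst-silent cells. In Sst-high cells it stood at 7.99 CPM (6.59 to 9.59) at E16.5, 13.5 CPM (10.3 to 17.3) at P1, and 34.4 CPM (29.5 to 40.0) at P5. Sst-silent cells gave 6.56 CPM (4.25 to 9.69), 9.22 CPM (5.27 to 15.0), and 31.8 CPM (24.5 to 40.7). Both groups were highest at P5 without overlap, and they overlapped each other in each library. Nos1 cells ran the other way, with 92.6 CPM (69.7 to 120) at E16.5, 17.8 CPM (12.4 to 24.7) at P1, and 5.60 CPM (2.80 to 10.0) at P5, so that they were the highest group at E16.5 and the lowest at P5.

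The Dab1 ratio of Nos1 over Sst-high cells was 3.38 (3.04 to 4.01) at E16.5, 0.37 (-0.24 to 1.02) at P1, and -2.42 (-3.65 to -1.74) at P5. From E16.5 to P5, Dab1 differed by 1.98 (1.76 to 2.46) in Sst-high cells, 2.12 (1.59 to 3.01) in Sst-silent cells, and -3.82 (-5.13 to -3.10) in Nos1 cells. The steps from P1 to P5 were 1.29 (0.93 to 1.80), 1.68 (0.98 to 2.68), and -1.51 (-2.79 to -0.65). A Dab1 UMI was present in 3.59%, 5.55%, and 14.4% of Sst-high cells, 2.45%, 2.24%, and 8.77% of Sst-silent cells, and 19.4%, 3.69%, and 1.46% of Nos1 cells. At 2000 UMIs these shares were 1.13%, 1.49%, and 4.96%, 0.853%, 1.31%, and 4.70%, and 4.62%, 1.69%, and 0.966%, which keeps the order of the libraries in Sst-high and Nos1 cells.

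Excitatory markers moved with Dab1 in Nos1 cells. The 6 excitatory genes summed to 670 CPM in Nos1 cells at E16.5, 177 CPM at P1, and 6.62 CPM at P5, with 6, 6, and 5 of 6 genes detected. The most abundant were Neurod6 (303 CPM), Neurod2 (51.3 CPM), and Slc17a7 (2.55 CPM), and Slc17a6 was at 0 at P5. In Sst-high cells the sum was 7.43, 7.40, and 4.63 CPM, with Slc17a6 at 0 at P1 and P5, and in Sst-silent cells 16.01, 28.8, and 9.09 CPM, with Slc17a7 at 0 at E16.5 and P1 and Slc17a6 at P5. Excitatory genes were thus high only in the Nos1 group, and there in the order of its Dab1 level. The cells with at least 2 excitatory markers and no Lhx6, Gad1 or Gad2 gave 257 CPM (209 to 313), 249 CPM (179 to 337), and 34.1 CPM (7.02 to 99.5) of Dab1.

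At E16.5, 14 of the 67 Nos1 cells had at least 2 excitatory markers and held 53 of 55 Dab1 UMIs, which came to 287 CPM (215 to 376), against 4.88 CPM (0.591 to 17.6) in the other 53 cells. At P1, 17 of 434 cells held 26 of 35 Dab1 UMIs, with 154 CPM (101 to 226) against 4.997 CPM (2.28 to 9.49). At P5 the 3 such cells held none of the 11 Dab1 UMIs, and the other 544 cells stood at 5.63 CPM (2.81 to 10.1). Among Nos1 cells with 0 or 1 excitatory marker the intervals of the 3 libraries overlapped, but with 2 Dab1 UMIs left at E16.5 this does not show equal levels. In these cells the ratio of Nos1 over Sst-high cells became -0.48 (-3.62 to 1.33) at E16.5, which left Reln as the only member 2-fold apart there. It became -1.21 (-2.57 to -0.35) at P1 and remained -2.42 at P5, and that from E16.5 to P5 in Nos1 cells became 0.17 (-1.99 to 3.42).

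Without the 5% of cells with the most UMIs, the Dab1 ratio from E16.5 to P5 in Sst-high cells was 2.68 in place of 1.98, with 50 of 115 Dab1 UMIs left at E16.5. In Sst-high and Sst-silent cells the Dab1 difference from E16.5 to P5 was as large without cells with excitatory markers, at 2.12 (1.90 to 2.63) and 2.22 (1.69 to 3.15). Reln hardly depended on them, with ratios of Nos1 over Sst-high cells of -1.94, -1.91, and -2.98 at E16.5, P1, and P5. With more than 1000 genes and under 5% mitochondrial UMIs, the P1 library was left with 3 Dab1 UMIs in 184 Sst-high cells and 0 in 222 Nos1 cells, too few to read the steps to and from P1 under that filter.

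**Figure D4:**
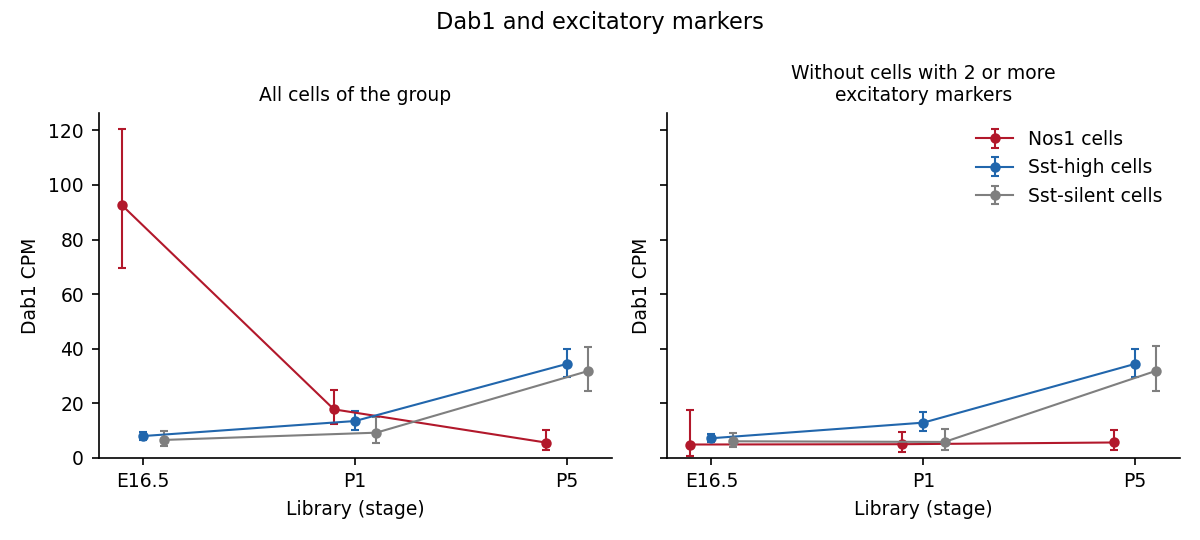
Dab1 CPM (vertical axis) in Nos1, Sst-high, and Sst-silent cells of the E16.5, P1, and P5 libraries (horizontal axis), for all cells and without cells holding at least 2 excitatory markers, with exact 95% Poisson intervals. Leaving out those cells takes Nos1 cells from 92.6 to 4.88 CPM at E16.5 and from 17.8 to 4.997 CPM at P1.

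Among Nos1 cells at P5, 0 of the 221 cells with Lypd1 held a Dab1 UMI, at a median of 3370 UMIs per cell. This allows up to 1.66% of such cells with a UMI and up to 4.34 CPM. The 284 cells with neither Lypd1 nor Dach1 held all 11 Dab1 UMIs of the P5 Nos1 cells, in 8 cells (2.82%, 1.22 to 5.47), and stood at 11.8 CPM (5.90 to 21.2), so that the intervals overlapped by share of cells and not by CPM. Among Sst-high cells, the ratios of Dab1 and Reln with over without a marker had opposite signs in 13 of 16, 9 of 15, and 13 of 18 gates. For Lrp8 and Reln it was 5, 12, and 10 of the same gates, and for Vldlr and Reln 8, 7, and 11. The receptor ratios were all under 2-fold and most of their intervals held 0. Their signs therefore cannot show whether opposite signs were particular to Dab1. The gates with the same sign included Zeb2 at P1 and Etv1 at P5, named after their values were seen. At P5 Dab1 was 61.9 CPM (50.7 to 74.8) with Erbb4 and 19.8 CPM without, a ratio of 1.60 (1.19 to 2.12), and 47.4 CPM (39.8 to 56.0) with Cort and 16.4 CPM without. With Nr2f2 it was 12.2 CPM (7.62 to 18.4) and without it 47.2 CPM, a ratio of -1.88 (-2.68 to -1.31). The median over Martinotti gates was -0.19, -0.99, and -1.09 at E16.5, P1, and P5, and over non-Martinotti gates 0.40, 1.40, and 0.94. Over Martinotti gates, 1, 0, and 0 intervals of the Dab1 ratio lay above 0 and 3, 4, and 5 below. Over non-Martinotti gates, 4, 2, and 6 lay above 0 and 2, 0, and 1 below. The exceptions at E16.5 were Cbln4 of the Martinotti list (1.61) and Zeb2 (-1.33) and Nxph2 (-1.05) of the other list. At P5 the exception was Sfrp2 of the non-Martinotti list (-1.61). In Sst-high cells with at least 5 Reln UMIs against those with 0, the Dab1 ratio was -1.99 (-5.60 to -0.62), -0.36, and -1.61, with 2 Dab1 UMIs in the Reln-rich cells at E16.5.

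In single Sst-high cells thinned to 2000 UMIs, 10 cells held both Reln and Dab1 at P5, where the product of the shares gives 20.7, and 3 and 4 cells held both at E16.5 and P1, with products of 4.66 and 3.51. Reln and Lrp8 were found together in 99, 82, and 172 cells, with products of 76.3, 94.7, and 158, and Reln and Vldlr in 54, 60, and 73 cells, with products of 63.9, 56.1, and 89.7. All 3 pairs lay on both sides of the product over the libraries. The counts are sparse and are given as a description.

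Of 53 further genes of the pathway, 49, 50, and 49 were measured in Nos1 against Sst-high cells at E16.5, P1, and P5, of which 3, 2, and 2 were at least 2-fold higher and 2 each at least 2-fold lower. This made 10.2%, 8%, and 8.16% of the list, beside 14.6%, 7.46%, and 11.1% of all genes. Their median log2 ratios were -0.08, -0.05, and -0.09, beside -0.03, -0.02, and -0.07 for all genes. In Sst-silent against Sst-high cells, 1, 2, and 5 of 50, 48, and 49 measured genes were higher and 2, 3, and 4 lower, with medians of 0.09, -0.03, and -0.04 beside 0.01, -0.01, and 0.01 for all genes. This made 6%, 10.4%, and 18.4% of the list, beside 6.07%, 10.1%, and 7.14% of all genes, so that the list was above the background at P5 in this comparison and near or below it in the other 5 comparisons of cell groups.

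Adamts3, whose protease cleaves reelin, was the only listed gene on the same side of 2-fold in all 3 libraries for Nos1 over Sst-high cells. It stood at 5.05, 11.7, and 25.0 CPM in Nos1 cells and 0.764, 1.74, and 1.21 CPM in Sst-high cells. The ratios were 1.78 (0.24 to 4.65), from 3 Nos1-cell UMIs, 2.21 (1.53 to 4.12), and 3.55 (3.14 to 5.88). Adamts4, a related protease gene, stood at 10.2, 8.07, and 9.60 CPM in Sst-silent cells and 2.22, 1.96, and 1.21 CPM in Sst-high cells, with ratios of 1.80, 1.62, and 2.26. Sorl1, a sorting receptor gene related to the reelin receptors, was lower in Sst-silent cells, at 7.61, 13.3, and 15.7 CPM against 18.1, 35.9, and 46.9 CPM, with ratios of -1.15, -1.37, and -1.52.

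From E16.5 to P5, 9, 8, and 8 of the pathway genes were at least 2-fold higher and 3, 5, and 6 lower in Nos1, Sst-high, and Sst-silent cells, of 46, 51, and 49 measured. This made 26.1%, 25.5%, and 28.6% of the list, below the 32.9%, 30.4%, and 35.1% of all genes. Those on the same side in all 3 groups were Clu, Cdk5r2, and Nck2. Clu, which encodes clusterin, another ligand of the receptors, stood at 22.2, 87.3, and 156 CPM in Sst-high cells, with ratios of 2.56, 2.76, and 2.05 in the 3 groups. Cdk5r2, an activator of the kinase Cdk5, stood at 27.1, 115, and 298 CPM, with ratios of 2.21, 3.41, and 3.31. Nck2, an adaptor gene, stood at 23.7, 25.2, and 9.47 CPM, with ratios of -2.28, -1.24, and -1.74.

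The genes whose pattern was most like that of each member were sought over 61 points, each a gate or group of at least 30 cells in 1 library, after each library's mean was taken out, among 5842 genes. For Reln these were Sema6a (Pearson r = 0.91), Grik3 (0.88), Iqsec1 (0.86), Pfn2 (0.85), and Npas1 (0.83). For Lrp8 they were Kif21a (0.69), Ric8a (0.63), Phyhipl (0.61), Fam102b (0.61), and C330007P06Rik (0.60), and for Vldlr Pgap1 (0.73), Spats2l (0.72), Magi2 (0.72), Marcks (0.71), and Sms (0.70). For Dab1 they were Ndrg3 (0.75), Hivep2 (0.74), Gpm6a (0.74), Dync1i1 (0.73), and Tnik (0.71). The points include other cell types, with Dab1 at 257 and 249 CPM in the excitatory gates of E16.5 and P1 and at most 68.3 CPM in any gate within Sst-high cells. Over the 49 gates within Sst-high cells alone, chosen after seeing the data, r of the genes named ran from 0.49 to 0.69 for Reln, 0.42 to 0.76 for Lrp8, 0.43 to 0.57 for Vldlr, and 0.53 to 0.73 for Dab1. Between members, over all 61 points, r was 0.63 for Reln and Vldlr and between -0.19 and 0.17 for the remaining pairs, over points that share cells, library and depth. These r were not read over the gates within Sst-high cells alone. There the ratios of Reln and Vldlr had opposite signs in 8 of 16, 7 of 15, and 11 of 18 gates.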

How the data were processed

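The deposited matrices hold UMI counts per gene and cell, which the authors made with Cell Ranger (3.1.0 at E16.5 and P5, 3.0.2 at P1, per the file headers) on GRCm38, with cells called by Cell Ranger. Trypsin and DNase were used at P5 and Percoll at P1 and P5. Here the UMIs of a group's cells were added up and divided by the group's total. Ratios were log2((CPM + 1)/(CPM + 1)). Cells were thinned to 2000 UMIs with a fixed seed. Python 3.11.15, numpy 2.4.6, scipy 1.17.1, pandas 2.3.3 and matplotlib 3.10.9 were used, and the calculations were tested on simulated data. Doublets were not removed, and an alternative left out the 5% of cells with the most UMIs.

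The members and lists were chosen with earlier results of these data known. Pathway genes were named if at least 2-fold apart in the same direction in all 3 libraries between groups, or in all 3 groups from E16.5 to P5. For likeness, the 5 genes with the highest r were named, among those averaging at least 20 CPM in each library. The gates of CGE and Meis2 cells (2 markers) and of excitatory cells without Lhx6, Gad1 and Gad2, the bins of Nos1 UMIs and the Reln-rich threshold of 5 UMIs were chosen after seeing the data. There were 14 alternatives planned, leaving out cells with 2 or more excitatory markers among them, and 2 added after seeing the data.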

Additional observations from a re-analysis of the deposited data

Results flagged for a closer look

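The values in this paragraph are contrasts in which groups of cells or libraries moved in opposite directions, and none of these differences was tested. Dab1 was higher in Nos1 than in Sst-high cells at E16.5 (log2 ratio 3.38) and lower at P5 (-2.42). From E16.5 to P1, Dab1 was higher in Sst-high cells (0.69) and lower in Nos1 cells (-2.32). From E16.5 to P5 it was higher in Sst-high (1.98) and Sst-silent cells (2.12) and lower in Nos1 cells (-3.82), and from P1 to P5 the ratios were 1.29, 1.68, and -1.51. Excitatory markers moved with Dab1 in Nos1 cells: without cells with at least 2 of them, the Nos1 ratio against Sst-high cells at E16.5 was -0.48, and those within Nos1 cells were 0.03 from E16.5 to P1, 0.14 from P1 to P5 and 0.17 from E16.5 to P5. Reln from P1 to P5 was higher in Sst-high (0.43) and Sst-silent cells (0.69) and lower in Nos1 cells (-0.75), where it turned to 0.64 with a stricter filter on cells and to 0.27 with at least 5 Nos1 UMIs, chosen after seeing the data, while that in Sst-high cells turned to -0.18 with no filter on cells. Vldlr from P1 to P5 was higher in Sst-silent cells (0.33) and lower in Sst-high cells (-0.38). With the stricter filter on cells, Vldlr was no longer higher at P5 in Sst-silent cells (118.8 CPM at P1 and 117.5 CPM at P5). It stayed lower at P5 in Sst-high cells (140.5 and 100.7 CPM).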

How the results depend on the processing

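Of 708 log2 ratios of members under the alternatives, 612 stayed within the counting interval of the reported value. Of the ratios of at least 2-fold, 22 in number, 253 of 260 recomputed values kept their sign and 244 of 260 stayed at least 2-fold. Counts of members past 2-fold held in 153 of 177 cases, where a count of 3 that lost a single member was taken as held. This applied to Nos1 cells from E16.5 to P1. Counts of all genes stayed within 1.5 times in 155 of 177 cases, and shares of cells within their interval in 191 of 228. Shares at 1000 in place of 2000 UMIs held in 10 of 36 cases, since fewer UMIs detect fewer cells by construction. Over gates within Sst-high cells only, chosen after seeing the data, 8 of 20 correlations with the genes named stayed within Fisher's 95% interval, which takes points as independent although they share cells, and 12 were lower. Where no reason is given, the cause was not tested.

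In cells with more than 1000 genes and under 5% mitochondrial UMIs, the Reln ratio of Nos1 over Sst-high cells was -2.62 at P1, that of Sst-silent over Sst-high cells was -1.07 at E16.5 and -1.39 at P1, and Dab1 from P1 to P5 in Nos1 cells came to 2.35, a value set by the pseudocount, since the P1 cells then held 0 Dab1 UMIs and those of P5 held 7, under the minimum of 10. Members past 2-fold then numbered 1 for Sst-silent over Sst-high cells at E16.5, 0 from P1 to P5 in Nos1 cells, 1 from E16.5 to P1 and 2 from P1 to P5 in Sst-high cells, and 1 and 2 in Sst-silent cells. From E16.5 to P1 in Nos1 cells, Reln dropped out of the 3 members past 2-fold, at 0.07. With no filter on cells, Reln in Sst-silent over Sst-high cells was -1.93 at P1, and members past 2-fold were 2 from P1 to P5 in Nos1 cells and 1 from E16.5 to P1 in Sst-silent cells. Without the 5% of cells with the most UMIs, Reln was -2.16 in Nos1 over Sst-high cells at P1 and -1.03 in Sst-silent over Sst-high cells at E16.5, where 1 member passed 2-fold.

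Without cells with 2 or more excitatory markers, Dab1 turned to -0.48 in Nos1 over Sst-high cells at E16.5 and, in Nos1 cells, to 0.03 from E16.5 to P1, 0.14 from P1 to P5 and 0.17 from E16.5 to P5. Members past 2-fold were then 1 at E16.5 and 2 at P1 for Nos1 over Sst-high cells, 2 for Sst-silent over Sst-high cells at P1, and 0 from P1 to P5 and 1 from E16.5 to P5 in Nos1 cells. From E16.5 to P1 in Nos1 cells, Dab1 dropped out of the 3 members past 2-fold, which left Reln (1.52) and Lrp8 (1.35).

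With at least 3 Nos1 UMIs, Reln in Nos1 over Sst-high cells was -3.29 at P1 and -4.27 at P5 and turned to -0.22 from E16.5 to P1 in Nos1 cells, members past 2-fold were 2 for Nos1 over Sst-high cells at P1 and 1 each from E16.5 to P1 and to P5 in Nos1 cells, and 4282 genes at E16.5 and 1535 at P1 were past 2-fold, from fewer cells. With at least 5, chosen after seeing the data, Reln in Nos1 over Sst-high cells was -0.89, -4.06 and -4.22 in the 3 libraries in order of stage, and turned to -1.68 from E16.5 to P1. Members past 2-fold were then 1 at E16.5, 3 at P1 and 0 from P1 to P5 in Nos1 cells, with 5428 genes at E16.5 and 1643 at P1. With at least 10 Sst UMIs, Reln in Sst-silent over Sst-high cells was -0.64 at E16.5.

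With the mean of per-cell CPM, Reln in Nos1 over Sst-high cells was -2.14 at P1 and -3.52 at P5, in Sst-silent over Sst-high cells -1.73 at P5, and 1 member passed 2-fold from E16.5 to P5 in Nos1 and in Sst-silent cells. With cells thinned to 2000 UMIs, the same Reln ratios were -2.19, -3.30 and -1.52, members past 2-fold were 0 from P1 to P5 and 1 from E16.5 to P5 in Nos1 cells, and 3338 genes passed at E16.5 in Nos1 over Sst-high cells. From E16.5 to P1 in Nos1 cells, Lrp8 dropped out of the 3 members past 2-fold under both settings. It was 0.86 with the mean of per-cell CPM and 0.61 with thinned cells.

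A pseudocount of 5 CPM lowers ratios of scarce genes by construction. In order of stage, it left 515, 375 and 657 genes past 2-fold in Nos1 over Sst-high cells and 292, 509 and 316 in Sst-silent over Sst-high cells. Between stages it left 1583, 1185 and 1010 from E16.5 to P1 in Nos1, Sst-high, and Sst-silent cells, 1442, 1251 and 1917 from P1 to P5, and 2657 from E16.5 to P5 in Sst-high cells. With no filter on UMIs, which adds scarce genes, 1413 genes passed at P1 in Nos1 over Sst-high cells, and in Nos1 cells 4370 from E16.5 to P1, 3689 from P1 to P5 and 5834 from E16.5 to P5.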

Other observations

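Mylip, whose ubiquitin ligase targets the reelin receptors for degradation, was chosen after its values were seen. It stood at 8.12 CPM (16 UMIs) in Nos1 cells and 0.435 CPM (2 UMIs) in Sst-high cells at P1, a log2 ratio of 2.67 with a 95% counting interval of 2.13 to 7.39, and at 5.09 CPM (10 UMIs) and 0.201 CPM (1 UMI) at P5, a ratio of 2.34 (1.85 to 10.1). At E16.5 it had 0 UMIs in the 67 Nos1 cells and 17 UMIs (1.18 CPM) in the 1920 Sst-high cells, which is too shallow to show a direction.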
